A study of Mus musculus with 16 samples.

Results

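The genes of the proteasome were followed through the amplification of a single-cell amount of RNA. The members were all probe sets whose only gene symbol in the platform annotation begins with Psma, Psmb, Psmc, Psmd, Psme, Psmf or Psmg followed by a number. The rule found 103 probe sets of 49 genes among the 45101 probe sets of the array, and it used no measured value. Of these genes, 47 encode proteasome subunits, assembly chaperones, activators or an inhibitor. Psmc3ip, a factor of meiotic recombination, and Psme3ip1, which binds the activator encoded by Psme3, carry similar symbols and were kept because the rule includes them.

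The 16 Affymetrix arrays were all hybridised with material from a single source, the total RNA of cultured mouse ES cells (line E14tg2a). In the amplified group, 8 samples were diluted to 10 pg of RNA, about the content of a single cell, converted to cDNA and amplified by PCR with a procedure named the V1V3 method, each independently, before labelling. In the nonamplified group, 8 samples of 5 ug of the undiluted RNA were labelled without PCR. The arrays are technical replicates of 1 RNA source with no treatment, so the comparison asks how faithfully amplification kept the levels of proteasome transcripts, and p-values measure only the spread between technical replicates. The cell composition is the same on all arrays by design.

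The proteasome is the protease that degrades most short-lived and damaged proteins of the cell. Its barrel-shaped 20S core is built of outer alpha rings, which gate the entry, and inner beta rings, which hold the proteolytic sites. The 19S cap has a base of ATPases that unfolds and threads the substrate and a lid that removes its ubiquitin chain. Because the subunits are needed in fixed proportions, their genes are transcribed together in most cells, and embryonic stem cells are known for high proteasome activity.

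The deposited values are intensities, a linear measure of a probe set's brightness on an array, with a lowest value of 1 and no detection call. Median intensities per array were 33.9 to 36.7 in the amplified group and 49.7 to 53.8 in the nonamplified group. Correlations of log2 intensities between arrays were 0.7886 to 0.8287 over the 28 amplified pairs and 0.9718 to 0.9846 over the 28 nonamplified pairs. Summed intensities of 12 embryonic stem cell markers were 31281 to 32953 on nonamplified and 39657 to 43732 on amplified arrays, each gene taken at its brightest nonamplified probe set. The markers did not rise together. By the test given below, 6 of their 19 tested probe sets were higher, 8 lower and 5 not called, beside 24.7% higher and 33.4% lower of all tested. Mean intensities without and with amplification were 1776 and 276 for Nanog, and 1814 and 8761 for Utf1 1416899_at. All 12 genes lay in the brighter 25% by nonamplified mean. By that mean, 0 marker genes of fibroblasts, extraembryonic endoderm, trophoblast or blood cells and 1 of the 4 measured for ectoderm and mesoderm (Pax6) did so. Summed levels without and with amplification were 390 to 476 and 681 to 1228 for ectoderm and mesoderm markers. For extraembryonic endoderm markers they were 184 to 246 and 357 to 442, each gene again at its brightest nonamplified probe set. Sums for fibroblasts (290 to 387 and 232 to 357) and trophoblast (171 to 245 and 149 to 406) overlapped. So did those for blood cells (217 to 302 and 238 to 380). On amplified arrays, Hand1 1448750_at, a probe set of a trophoblast marker, read 12876 to 14241, against 22.8 to 54.3 on nonamplified ones, although both groups hold the same RNA; it is named after its values were seen. Because a common shift of an array moves every probe set, each direction was also examined under 4 other scalings. The median difference over all 27022 tested probe sets was -0.19 (log2) as deposited, -0.067 after quantile normalization, 0.22 after centring on the array median, 0.33 after scaling on the brighter 50% of probe sets and -0.54 after scaling on the hybridization controls.

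Proteasome probe sets were found both higher and lower after amplification, and the balance of the directions depended on the scaling. A difference below is the amplified minus the nonamplified mean of log2(intensity + 16), so it understates changes of dim probe sets, and a probe set was called where limma's adjusted p was below 0.05. Of the 88 members bright enough to be tested, 33 were higher and 31 lower in the amplified group, and 24 were not called. Over all tested probe sets, 58.0% were called, 24.7% higher and 33.4% lower. In the brighter 25% by nonamplified mean, 24 of 70 members were higher and 27 lower, beside 21.7% and 39.1% of all probe sets there. The split was 22 higher and 40 lower after quantile normalization, 43 and 23 after centring on the median, 44 and 18 after scaling on the brighter 50%, and 19 and 37 with the hybridization controls. Shares over all tested probe sets under each of these scalings are not given here, so these splits are no result about the members. As deposited, the members' differences ran from -3.81 to 3.83 with a median of 0.044. Groups did not overlap for 40 members, of which 20 were higher and 20 lower, against 34.6% of all tested probe sets, and 15 members rose and 20 fell by at least 2-fold, beside 13.0% and 23.4% of all tested. Under all 5 scalings, 17 members were higher and 18 lower, against 13.8% and 20.6% of all tested probe sets. When each gene was represented by its brightest nonamplified probe set alone, 17 of 48 genes were higher, 17 lower and 14 not called. The share over all genes taken the same way is not given here, so this count has no background.

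**Figure D1:**
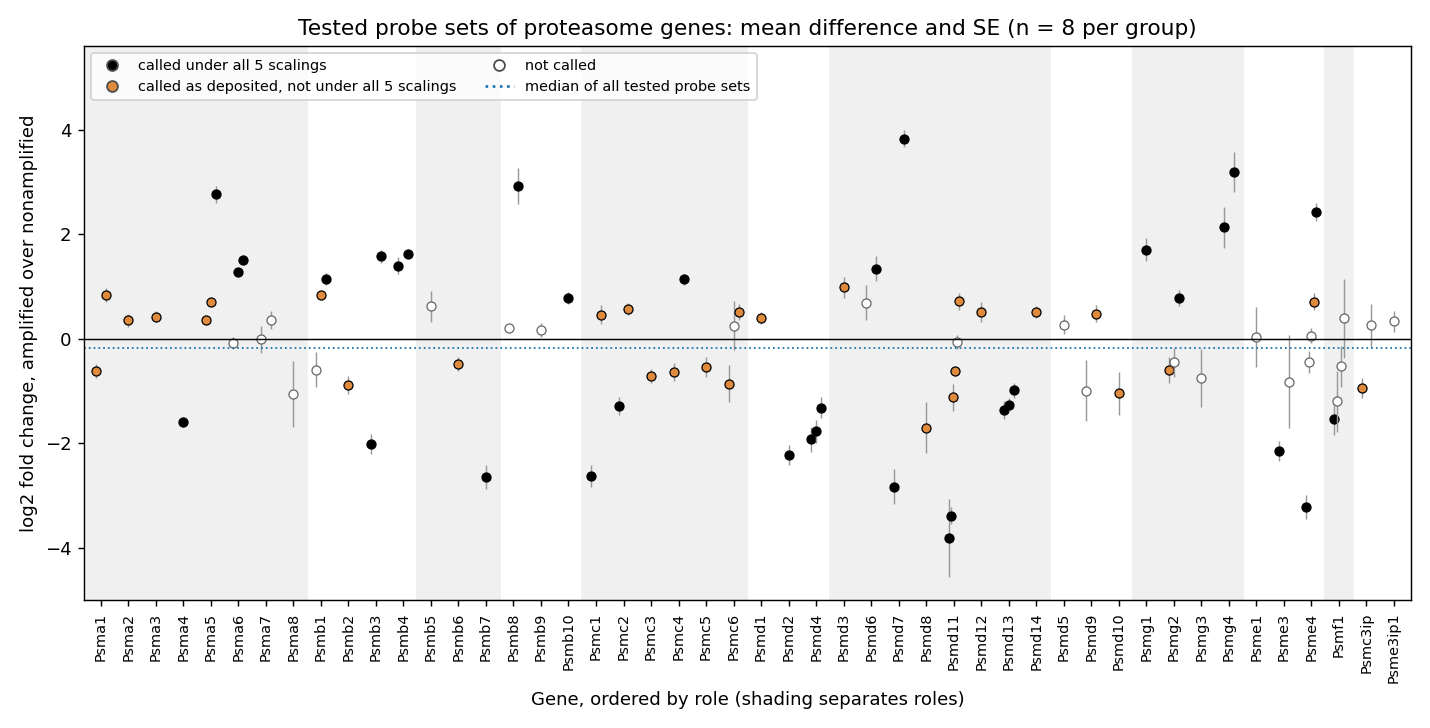
Difference between the groups (amplified minus nonamplified mean of log2(intensity + 16)) of each of the 88 tested member probe sets, ordered by gene and role, with the standard error as bars. Black points are calls that hold under all 5 scalings (17 higher, 18 lower), orange points calls as deposited that do not, and open points are not called; members run from -3.81 to 3.83, and the dotted line is the median of all tested probe sets, -0.19.

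The 15 untested members had mean intensities of at most 42.1 in the nonamplified and 53.7 in the amplified group. They include all that was measured of Psmb11, the beta subunit of the thymus, and 14 further probe sets of genes that have another tested one. With no filter on low values, 35 of the 103 members were higher and 36 lower, beside 19.0% and 31.1% of all probe sets.

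The 3 catalytic beta subunits of the constitutive core did not move together. Psmb7, which carries the trypsin-like site, had intensities of 2574 to 2728 (median 2688) on nonamplified arrays and 167 to 698 (median 458) on amplified ones. Its groups did not overlap, and the difference was -2.65 (SE 0.23, n = 8 per group, limma adjusted p = 4.36e-08), with the same call under all 5 scalings. Psmb6, with the caspase-like site, read 2176 to 2422 (median 2287) without and 1060 to 2289 (median 1784) with amplification. The groups overlapped, and Psmb6 was lower by a log2 difference of -0.49 (SE 0.13, limma adjusted p = 0.00466), although scaling on the brighter 50% gave 0.15. For Psmb5, which carries the chymotrypsin-like site and is the main target of bortezomib, nonamplified arrays lay between 2017 and 2176 (median 2078) and amplified arrays between 1266 and 6506 (median 3698). Amplified arrays thus fell on both sides of the nonamplified ones, and the difference of 0.62 (SE 0.29, limma adjusted p = 0.0819; -0.23 after quantile normalization) was not called.

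Their interferon-inducible counterparts, which replace them in the immunoproteasome, were higher or not called. Psmb8, the counterpart of Psmb5, has a probe set, 1422962_a_at, that read 12.6 to 21.5 (median 16.7) on nonamplified arrays. On amplified arrays it read 75.6 to 523 (median 256), without overlap, a difference of 2.92 (SE 0.35, limma adjusted p = 1.55e-06, called under all 5 scalings). This probe set passed the filter only through the amplified group, which favoured a higher call. The other Psmb8 probe set, 1444619_x_at, read 247 to 324 (median 275) and 278 to 368 (median 310), overlapped, and was not called (difference 0.20, limma adjusted p = 0.0576; -0.21 with the hybridization controls). The 2 probe sets of this gene therefore gave different answers on the same arrays. Psmb10, the counterpart of Psmb7, was higher on every amplified array, at 290 to 540 (median 346) against 174 to 239 (median 212). The difference of 0.77 (SE 0.11, limma adjusted p = 1.74e-05) was called under all 5 scalings. Psmb9, the counterpart of Psmb6, read 59.0 to 71.6 (median 68.9) and 57.0 to 130 (median 74.1), overlapped, and was not called (difference 0.17, limma adjusted p = 0.29; -0.18 with the hybridization controls). Blood and immune markers, of cells rich in these subunits, summed to 217 to 302 on nonamplified and 238 to 380 on amplified arrays, and 0 of the 6 genes lay in the brighter 25% by nonamplified mean.

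**Figure D2:**
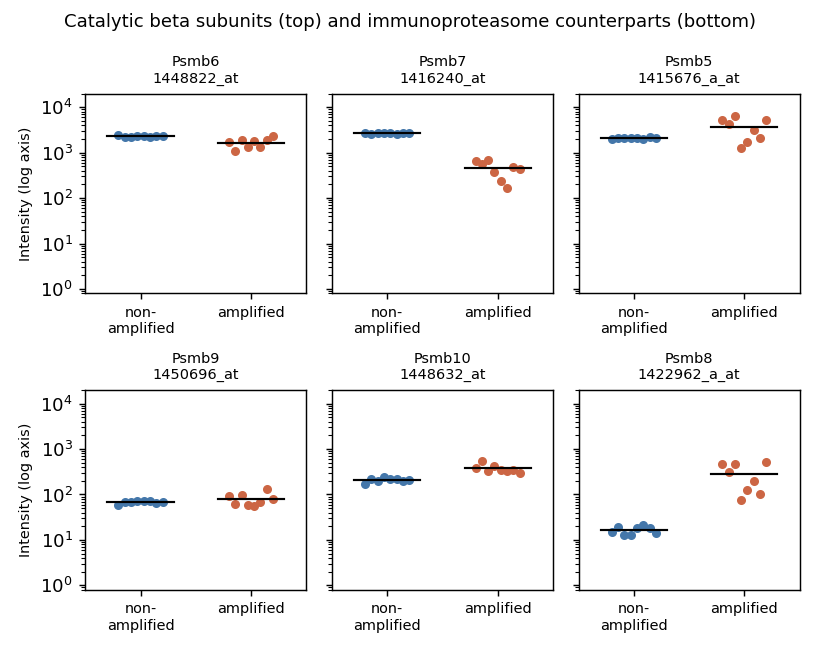
Intensity (log axis) on each of the 16 arrays for the probe sets of the constitutive catalytic subunits Psmb6, Psmb7 and Psmb5 and of their inducible counterparts Psmb9, Psmb10 and Psmb8, with a line at each group's mean. Where a gene has several, the probe set with the largest difference is shown. Psmb7 lies at 2574 to 2728 without and 167 to 698 with amplification, while probe set 1422962_a_at of Psmb8 lies at 12.6 to 21.5 and 75.6 to 523. The latter passed the filter only through the amplified group.

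Of the beta subunits without a catalytic site, 5 of 8 tested probe sets were higher, 2 lower and 1 not called, with 4 and 1 calls holding under all 5 scalings. With only the brightest nonamplified probe set of each, the 4 genes split into 2 higher and 2 lower. Psmb4, whose product completes the ring during assembly, had a probe set (1438984_x_at) at 1611 to 1838 (median 1704) without and 4302 to 5835 (median 5470) with amplification. No array of either group reached the other, and the difference was 1.63 (SE 0.08, limma adjusted p = 1.65e-11). Its other probe set, 1451205_at, differed by 1.39. Psmb2 was lower, by a difference of -0.89, but was not called after scaling on the brighter 50% (-0.26). Psmb1 had probe sets at 1.14 and 0.83, the latter -0.028 after quantile normalization, and an uncalled one at -0.59.

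In the alpha rings, 8 of 14 tested probe sets were higher, 2 lower and 4 not called, and 3 higher and 1 lower calls held under all 5 scalings. Psma4 was the clear fall: it read 1655 to 1847 (median 1767) without and 446 to 725 (median 566) with amplification, with no overlap. Its difference was -1.60 (SE 0.10, limma adjusted p = 5.72e-10) and held under all 5 scalings. Psma6 had 2 probe sets that were higher under all 5 scalings, 1435317_x_at at 1.50 and 1437144_x_at at 1.27, while the remaining one, 1416506_at, was not called at -0.079 (0.33 and 0.56 after centring on the median and scaling on the brighter 50%). Probe sets ending in _x_at or _s_at contain probes shared with other transcripts, so their signal may include those.

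Probe set 1454940_at of Psma5 was near the floor without amplification, at 1.07 to 17.8 (median 5.8), and at 114 to 202 (median 137) with it. Its difference was 2.76 (SE 0.16, limma adjusted p = 2.68e-10), under all 5 scalings. This probe set is among the higher alpha ring calls that held, and it passed the filter only through the amplified group. The other Psma5 probe sets, at 0.36 and 0.69, and those of Psma2 (0.35) and Psma3 (0.42) were higher as deposited, but were -0.43, -0.14, -0.50 and -0.45 after quantile normalization. Psma8, a paralogue of Psma7 known from testis, was not called at -1.06, nor were the Psma7 probe sets at 0.36 (-0.42 after quantile normalization) and -0.017 (0.39 after centring on the median).

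The chaperones that assemble the alpha ring had 4 higher, 1 lower and 2 uncalled probe sets among 7 tested, and the 4 higher calls held under all 5 scalings. Of these 4, Psmg4 1445700_at and Psmg2 1444264_at passed the filter only through the amplified group. Their nonamplified means were 6.9 and 25.1, and their groups overlapped. Psmg4 (1435431_at) read 225 to 260 (median 243) without and 389 to 4428 (median 3060) with amplification. The groups did not overlap, and the difference was 3.19 (SE 0.38, limma adjusted p = 1.57e-06). A second Psmg4 probe set was higher by 2.13 and Psmg1 by 1.70. Psmg3 was not called, at -0.76.

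In the base of the cap, the ATPases that unfold the substrate split into 4 higher, 6 lower and 1 uncalled probe sets among 11 tested, and 1 higher and 2 lower calls held under all 5 scalings. Psmc4 (1416290_a_at) read 1579 to 2069 (median 1817) without and 3168 to 5233 (median 3873) with amplification. Its groups did not overlap, and the difference was 1.13 (SE 0.11, limma adjusted p = 8.11e-08). Psmc1 (1416005_at) went the other way, from 904 to 972 (median 934) to 44.6 to 202 (median 158), again without overlap. That difference was -2.63 (SE 0.21, limma adjusted p = 1.52e-08). Psmc3, with 1 probe set, was lower by -0.72, and Psmc5 by -0.54. After scaling on the brighter 50%, Psmc3 was at -0.082 and Psmc5 at 0.094, neither of them called.

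Base subunits without ATPase activity, which hold and recognise ubiquitin chains, were lower for 4 of 5 tested probe sets, and these 4 calls, 3 of them from Psmd4, held under all 5 scalings. Psmd2, a scaffold that docks substrate shuttles, read 1365 to 1422 (median 1390) without and 128 to 399 (median 337) with amplification. No amplified array came near the nonamplified ones, and the difference was -2.23 (SE 0.19, limma adjusted p = 3.32e-08). The 3 probe sets of Psmd4, a ubiquitin receptor, differed by -1.32, -1.77 and -1.92, so that this gene gave 1 direction throughout. Psmd1, the other scaffold, was higher at 0.39 as deposited and at -0.39 after quantile normalization. Of the chaperones of the base, Psmd10 (gankyrin) was lower at -1.05 (limma adjusted p = 0.0399, and up to 0.0771 when any 1 of 11 arrays was left out), and Psmd9 had 1 higher probe set at 0.47 and 1 uncalled at -0.99. Psmd5 was not called, at 0.27 (-0.26 after quantile normalization).

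In the lid, 6 probe sets were higher, 9 lower and 2 not called among 17 tested, with 2 higher and 6 lower calls under all 5 scalings. Psmd11, whose product ties lid to base and has been linked to the high proteasome activity of human embryonic stem cells, had the largest fall without overlap in the lid. Its probe set 1429370_a_at read 1047 to 1227 (median 1111) without and 54.7 to 181 (median 92.1) with amplification. The difference was -3.39 (SE 0.16, limma adjusted p = 1.37e-11) and held under all 5 scalings. The 3 tested probe sets of Psmd13 were lower by -1.37, -0.99 and -1.26, also under all 5. Psmd14, the deubiquitinase of the lid, was higher at 0.51 as deposited and at -0.29 after quantile normalization. Psmd6 1423696_a_at was higher at 1.34 under all 5 scalings. The brighter Psmd6 probe set, 1423697_at, overlapped and was not called at 0.69 (limma adjusted p = 0.0928), and was at -0.092 after quantile normalization. Psmd3 was higher at 0.98 and Psmd8 lower at -1.70, neither under all 5 scalings.

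Among the activators, which open the alpha gate without ubiquitin, 2 of 8 tested probe sets were higher, 2 lower and 4 not called. Psme3, the nuclear activator, had 1418078_at lower by -2.15 under all 5 scalings and 1418079_at uncalled at -0.82. Psme1 was not called, at 0.031 (SE 0.57; -0.35 after quantile normalization). The inhibitor Psmf1 had 1 of 4 probe sets lower, 1424369_at, at 68.9 to 86.9 (median 77.2) without and 2.1 to 67.3 (median 10.5) with amplification. These groups did not overlap, and the difference was -1.55 (SE 0.29, limma adjusted p = 0.000223). Of the genes that are not subunits, Psmc3ip (1425271_at) fell from 183 to 205 (median 202) to 48.6 to 175 (median 100), without overlap. Its difference was -0.94 (SE 0.19, limma adjusted p = 0.000454), and the call did not hold under every scaling. The other Psmc3ip probe set, 1442058_s_at, overlapped and was not called, at 0.25 (-0.14 with the hybridization controls).

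Probe sets of the same gene often moved in opposite directions. Of 24 member genes with at least 2 tested probe sets, 10 (41.7%) had a higher and a lower one, namely Psma1, Psmb3, Psmc1, Psmc2, Psmc4, Psmc6, Psmd7, Psmd11, Psme4 and Psmg2. Over all genes with at least 2 tested probe sets, 1114 of 5640 (19.8%) did so. Both sets had a median of 2 tested probe sets per gene. Members were called more often, 64 of 88 beside 58.0% of all tested probe sets. The background was not matched in brightness or in calls, and whether this accounts for the members' higher share was not tested. In Psmb3, Psmd7 and Psme4 both directions held under all 5 scalings. The share of all genes with such calls is not given here. The higher probe sets Psme4 1446464_at, Psmd11 1431013_at and Psmg2 1444264_at passed the filter only through the amplified group, which favoured a higher call. For 1446464_at the mean intensity was 17.6 without and 171 with amplification. A factor common to an array largely cancels in the ratio of 2 of its probe sets. Of 66 member pairs, 52 had a different ratio between groups by an exact 2-sided permutation test over the arrays, adjusted over the 66 pairs by Benjamini-Hochberg. Pairs of other genes were not tested, so no share over all genes stands beside this count. Pairs of 1 gene share probe sets and are not independent, and Psmd11 and Psme4 gave the most. The change of the ratio had a median size of 1.36 (log2), and 33 pairs reached the smallest p that the 12870 splits can give, 0.000155.

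Psmd7, the lid partner of the deubiquitinase Psmd14, had the widest such gap. Its probe set 1432820_at read 45.9 to 56.6 (median 53.1) without and 683 to 1667 (median 899) with amplification. Its probe set 1451056_at read 1015 to 1267 (median 1174) without and 58.4 to 580 (median 123) with amplification. Neither overlapped, and the differences were 3.83 (SE 0.16, limma adjusted p = 3.23e-12) and -2.83 (SE 0.34, limma adjusted p = 1.87e-06). The ratio of the former to the latter changed by 6.66 (exact permutation p = 0.000155, adjusted 0.000311).

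Psme4, the large nuclear activator PA200, had 5 tested probe sets. Of these, 1446464_at read 12.9 to 25.4 (median 16.4) without and 109 to 284 (median 154) with amplification, a difference of 2.42 (SE 0.17, limma adjusted p = 3.4e-09). It passed the filter only through the amplified group. By contrast, 1426824_at read 735 to 852 (median 780) and 23.9 to 176 (median 71.0), a difference of -3.22 (SE 0.23, limma adjusted p = 2.49e-09). Neither overlapped, and their ratio, 1426824_at to 1446464_at, changed by -5.64 (exact permutation p = 0.000155, adjusted 0.000311). Of the remaining 3, 1426823_s_at read 1328 to 1477 (median 1412) and 1135 to 3639 (median 2329), at 0.71 (called; -0.078 after quantile normalization). Those not called were 1445147_at, at 34.2 to 51.7 (median 46.3) and 27.4 to 71.8 (median 52.0), with 0.057 (-0.27 with the hybridization controls), and 1452211_at, at 973 to 1054 (median 1032) and 301 to 1297 (median 794), with -0.44 (0.19 after scaling on the brighter 50%). All 3 overlapped.

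Psmb3, a beta subunit without a catalytic site, had 1417052_at at 1482 to 1718 (median 1536) without and 251 to 851 (median 341) with amplification. Its 1460198_a_at lay at 1378 to 1565 (median 1466) and 2900 to 5327 (median 4626). Amplified arrays were below all nonamplified ones for the former and above them for the latter, with differences of -2.02 (SE 0.19, limma adjusted p = 9.82e-08) and 1.57 (SE 0.12, limma adjusted p = 6.38e-09). Their ratio changed by -3.60 (exact permutation p = 0.000155, adjusted 0.000311).

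In the other 7 genes at least 1 of the opposite calls was lost or turned under another scaling. Among the ATPases, Psmc1 1439392_x_at read 245 to 380 (median 335) without and 255 to 717 (median 489) with amplification, with overlap and a difference of 0.46, against -2.63 for 1416005_at. Their ratio, 1416005_at to 1439392_x_at, changed by -3.08. Psmc2 1426611_at read 1575 to 1741 (median 1630) and 330 to 859 (median 779), a difference of -1.30. Its 1435859_x_at read 1979 to 2197 (median 2057) and 2260 to 3807 (median 3359), a difference of 0.57 (-0.27 after quantile normalization). Neither Psmc2 probe set overlapped, and their ratio changed by -1.87. Psmc4 1416291_at read 1143 to 1214 (median 1197) and 461 to 1234 (median 778), overlapped and differed by -0.64, against 1.13 for 1416290_a_at, and the ratio of the latter to the former changed by 1.77. The adjusted exact permutation p was 0.000311 in each of these genes.

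Psmc6 had 1417769_at at 93.0 to 119 (median 113) without and 5.92 to 168 (median 74.7) with amplification, and 1417771_a_at at 1804 to 2034 (median 1911) and 1660 to 3890 (median 2839). Both overlapped, with differences of -0.86 and 0.50 (the latter -0.33 after quantile normalization), and their ratio changed by -1.37 (adjusted exact permutation p = 0.0062). Its 1417770_s_at, at 542 to 634 (median 584) and 86.8 to 1945 (median 981), was not called (0.25; -0.22 after quantile normalization). In the alpha ring, Psma1 1415695_at read 1947 to 2225 (median 2103) and 1069 to 2410 (median 1281), overlapped and differed by -0.62 (0.018 after scaling on the brighter 50%). Its 1436770_x_at read 287 to 381 (median 327) and 471 to 869 (median 569), without overlap, and differed by 0.84. Their ratio changed by -1.46 (adjusted exact permutation p = 0.000311).

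The assembly chaperone Psmg2 had 1425373_a_at at 721 to 901 (median 785) without and 308 to 1146 (median 426) with amplification, a difference of -0.61 (0.019 after scaling on the brighter 50%). Its 1444264_at read 14.1 to 42.0 (median 23.3) and 26.9 to 64.3 (median 58.9), a difference of 0.77. Both overlapped, and the ratio changed by -1.38 (adjusted exact permutation p = 0.00162). Its 1448212_at, at 544 to 636 (median 585) and 212 to 866 (median 425), was not called (-0.45; 0.17 after scaling on the brighter 50%). The calls of Psmc1 1439392_x_at, Psmc6 1417769_at and Psmg2 1425373_a_at lay near the threshold and were lost when any 1 of 11, 12 or 13 arrays was left out, with limma adjusted p of up to 0.0881, 0.098 and 0.0904.

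Psmd11 had 6 tested probe sets, with calls at -3.81, -3.39, -1.12, -0.62 and 0.71 and 1 not called. Its higher one, 1431013_at, read 28.2 to 43.5 (median 34.7) without and 36.1 to 104 (median 73.7) with amplification, so the groups overlapped. Of the lower ones, 1456059_at read 372 to 423 (median 390) and 76.1 to 428 (median 166), with overlap, and 1456104_at read 78.8 to 92.8 (median 86.9) and 41.4 to 69.6 (median 50.4), without. The uncalled 1437080_s_at read 1846 to 2133 (median 1910) and 1208 to 2854 (median 1934), at -0.061 (0.35 and 0.58 after centring on the median and scaling on the brighter 50%).

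**Figure D3:**
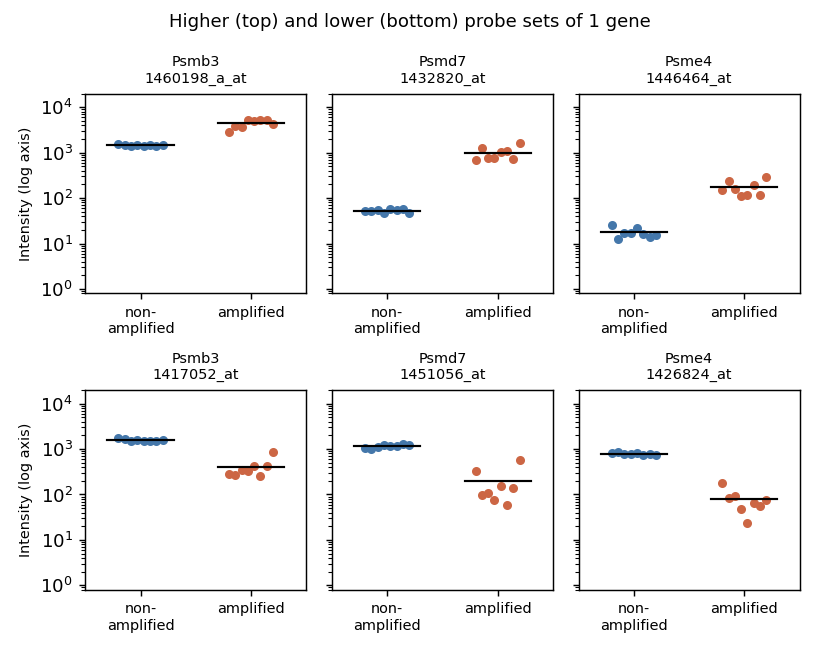
Intensity (log axis) on each of the 16 arrays for the highest and the lowest probe set by difference of Psmb3, Psmd7 and Psme4, the 3 genes whose opposite calls hold under all 5 scalings, with a line at each group's mean. For Psmd7, 1432820_at goes from 45.9 to 56.6 without to 683 to 1667 with amplification, and 1451056_at from 1015 to 1267 down to 58.4 to 580. The Psme4 probe set 1446464_at passed the filter only through the amplified group.

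Amplified arrays also differed more among themselves than nonamplified ones. The spread was called larger in the amplified group for 63 of the 88 members and smaller for 0 (limma on absolute deviations from the group mean, adjusted p below 0.05), beside 54.3% larger and 0.463% smaller among all tested probe sets. In the brighter 25%, 53 of 70 members had a larger spread, beside 76.9% of all probe sets there, so the members' share was near the background. The count of members was 16 after scaling on the hybridization controls and 37 with deviations from the median. Shares of all tested probe sets under these settings are not given here. The members' median SD of log2(intensity + 16) was 0.069 on nonamplified and 0.50 on amplified arrays, and over all tested probe sets it was 0.126 and 0.536. The mean over the tested members lay between 9.05 and 9.09 on each nonamplified array and between 8.64 and 9.21 on each amplified array.

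The widest member was Psme3 (1418079_at), at 434 to 551 (median 525) without and 12.6 to 3987 (median 210) with amplification. Its SD rose from 0.11 to 2.7 (limma adjusted p of the spread = 0.00177), while its mean difference of -0.82 was not called (SE 0.89, limma adjusted p = 0.457). Psmd11 (1440253_at) read 1001 to 1282 (median 1202) and 1 to 1219 (median 37.0), so that 1 amplified array lay within the nonamplified range and another at the floor. Its SD was 0.12 and 2.2 (limma adjusted p of the spread = 0.000898), and its difference of -3.81 (SE 0.75, limma adjusted p = 0.000324) held under all 5 scalings. Psma8 read 163 to 187 (median 180) and 1 to 348 (median 134), with an SD of 0.060 and 1.9 (limma adjusted p of the spread = 5.95e-05).

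At the other end, a few members varied little after amplification. Psma5 (1434356_a_at) read 1867 to 2093 (median 1987) without and 2979 to 3632 (median 3158) with amplification, with an SD of 0.055 and 0.091 (limma adjusted p of the spread = 0.665). The level of this probe set was nevertheless higher on every amplified array as deposited, by 0.69 (SE 0.07, limma adjusted p = 1.35e-07; -0.14 after quantile normalization). The SDs of Psmb8 (1444619_x_at) were 0.13 in both groups, and those of Psmb4 (1438984_x_at) were 0.060 and 0.15. Neither was called for spread, at adjusted p of 0.876 and 0.264 (limma). Of these, Psmb4 differed in level by 1.63, while the difference of Psmb8 1444619_x_at, 0.20, was not called.

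**Figure D4:**
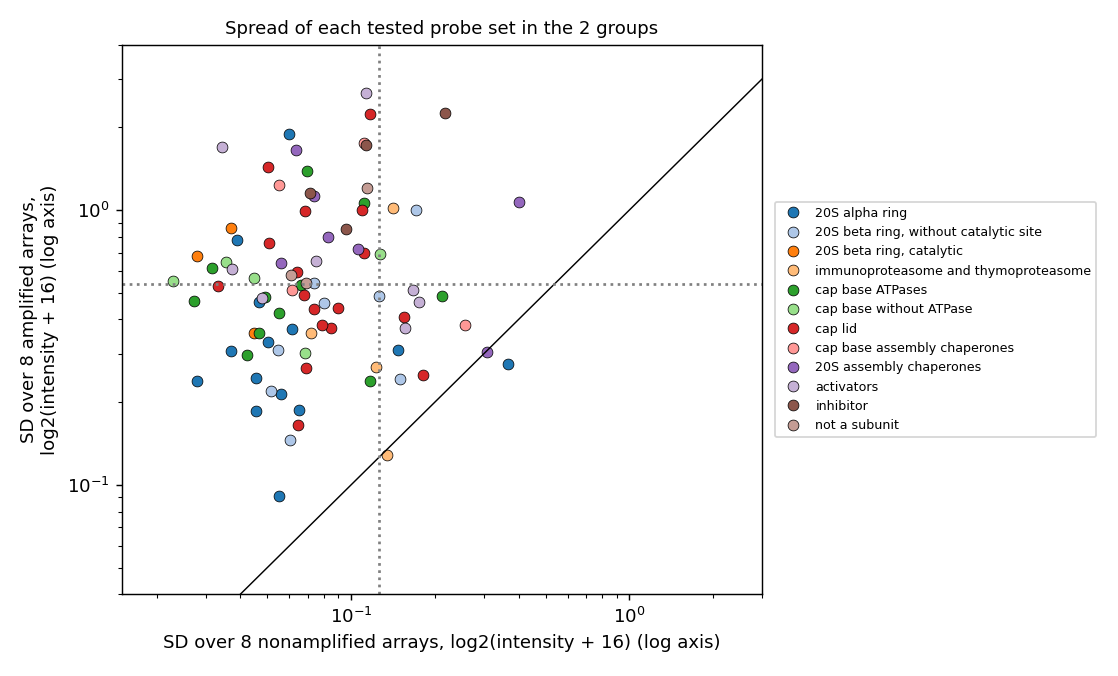
SD of log2(intensity + 16) over the 8 amplified arrays (vertical axis) against that over the 8 nonamplified arrays (horizontal axis) for the 88 tested members, on log axes, coloured by role, with a line of equal SD and dotted lines at the medians of all tested probe sets (0.126 and 0.536). Most members lie above the line, from Psma5 (0.055, 0.091) near it to Psme3 (0.11, 2.7) farthest up. The 63 larger calls become 16 after scaling on the hybridization controls, where no share over all tested probe sets is given.

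Losses of single members on single arrays were uncommon. A dropout was defined as an intensity under the 25th percentile of its array for a probe set in the upper 50% by nonamplified mean, and 79 members lay in that range. On amplified arrays they had 20 dropouts among 632 readings (3.16%), beside 14.5% of the readings of all probe sets in that range. In the brighter 25%, the members had 11 among 560 (1.96%), beside 9.68% of all readings there. The brighter 25% began at a nonamplified mean of 139, while the median of the tested members was 844. The background was therefore not matched to the members in brightness, and whether brightness accounts for their lower share was not tested. The nonamplified arrays had 0 member dropouts among 632 readings when each array was set against the mean of the others. The 20 dropouts came from 9 probe sets. Psmd11 (1440253_at), Psmf1 (1424369_at) and Psmf1 (1424370_s_at) had 4 each, Psma8 had 3, and Psmc6, Psmd10, Psmd9, Psmd4 and Psme3 had 1 each. Psmf1 (1424370_s_at) read 73.8 to 95.5 (median 86.4) without and 1 to 497 (median 16.7) with amplification, overlapped and was not called (difference -1.20, SE 0.58, limma adjusted p = 0.0865).

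Genes that work with the proteasome were also found in both directions. Of 30 listed (the core's maturation factor, lid subunit Sem1, deubiquitinases, shuttles, the segregase Vcp with its cofactors and the transcription factor of proteasome genes), 21 were measured by 62 probe sets, and the other 9 were not analysed here. Among 50 tested, 8 were higher, 22 lower and 20 not called, with a median difference of -0.45, beside 24.7% higher, 33.4% lower and a median of -0.19 over all tested probe sets. Txnl1, a thioredoxin bound to the cap, had a probe set (1437906_x_at) at 1 to 2.02 (median 1) without and 1348 to 2926 (median 1883) with amplification, a difference of 6.85 (SE 0.16, limma adjusted p = 2.28e-15). Its groups lay far apart, but this probe set passed the filter only through the amplified group. The other tested probe sets of Txnl1 were at 1.32, 0.83, 0.35 and -0.76.

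Sem1, the smallest lid subunit, agreed between its probe sets. Of these, 1418575_at read 1333 to 1653 (median 1481) without and 5148 to 5834 (median 5703) with amplification, without overlap, a difference of 1.90 (SE 0.07, limma adjusted p = 4.48e-13). Its 1418574_a_at read 1220 to 1414 (median 1336) and 3821 to 5394 (median 4424), a difference of 1.73. Zfand5, which activates the cap during muscle wasting, fell in 1416084_at from 305 to 366 (median 335) to 1 to 104 (median 4.15), a difference of -3.68 (SE 0.35, limma adjusted p = 1.25e-07). Its 1416085_s_at fell from 1033 to 1120 (median 1071) to 43.8 to 338 (median 126), a difference of -2.99. Zfand5 1453224_at was lower as well, at -2.44, while 1416083_at was not called, at -0.11 (0.30 after centring on the median and 0.52 after scaling on the brighter 50%). Zfand5 1416084_at and 1453224_at passed the filter only through the nonamplified group. The shuttle Ubqln1 (1419385_a_at) fell from 435 to 487 (median 468) to 1 to 200 (median 20.3), a difference of -3.53 (SE 0.48, limma adjusted p = 7.56e-06). These calls for Txnl1 1437906_x_at, both Sem1 probe sets, the 3 lower Zfand5 probe sets and Ubqln1 1419385_a_at held under all 5 scalings, and no group overlapped. Nfe2l1, the transcription factor that induces proteasome genes, was at 0.31 (-0.10 with the hybridization controls) and was not called (limma adjusted p = 0.181). The core's maturation factor Pomp, at 0.23 (-0.56 after quantile normalization and -0.20 with the hybridization controls), was not called either (limma adjusted p = 0.2).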

How the data were processed

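Intensities of 45101 probe sets were used as deposited by the authors in the series' value table; the software that summarised and scaled them is not given in the sources used here. The platform annotation names 1 gene symbol for 34945 probe sets, several for 932 and none for 9160 of those that are not among the 64 controls. Members and gene lists were chosen with earlier results of these data known.

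Probe sets with a mean intensity over the 16 arrays above the 40th percentile were tested on log2(intensity + 16) with limma 3.58.1 (lmFit, eBayes) in R 4.3.3, all 16 arrays entering, 2-sided, with Benjamini-Hochberg adjustment over all 27022. The same model on absolute deviations from the group mean tested the spread. Tests were checked on simulated data. The number of arrays limits the precision, and no batch is given in the labels.

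Values on every array were given for the catalytic subunits and their counterparts, for each role's largest difference in each direction among calls without overlap, for the 3 largest and 3 smallest SDs among bright members, for members with at least 4 dropouts, for all tested probe sets of genes with opposite calls, and for the 3 largest differences in each direction of the pathway list. Alternatives were pseudocounts of 1 and 64, no filter and the 60th percentile, 4 other scalings, weights per group, a robust trend, probe sets without shared probes, the replicate number as a block and each array left out. The probe set that names both Psme2b and Psme2 was not analysed here. No probe sequences were used here.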

Additional observations from a re-analysis of the deposited data

Results flagged for a closer look

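Among the 176 sets of 8 readings (88 members in 2 groups), 14 had 1 array that stood apart from the other 7 by Dixon's criterion, where chance gives about 1 in 20, or 8.8. Of these, 10 were in the amplified and 4 in the nonamplified group.

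In the amplified group, replicate 8 was high for Psmd3 (4143, the others 1113 to 2043), Psmb3 1417052_at (851, the others 251 to 434) and Psmd11 1456104_at (69.6, the others 41.4 to 51.7). Replicate 6 was low for Psmc1 1416005_at (44.6, the others 110 to 202) and for the assembly chaperone Psmg4 1435431_at (389, the others 1724 to 4428). Replicate 2 was low for the lid subunit Psmd12 (943, the others 1853 to 3176) and for Psmg2 1444264_at (26.9, the others 43.7 to 64.3). Psma1 1415695_at was high on replicate 7 (2410, the others 1069 to 1507). Psmb4 1451205_at was low on replicate 5 (3348, the others 7036 to 8797), and the activator Psme4 was low on replicate 3 (1426823_s_at, 1135, the others 2123 to 3639).

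In the nonamplified group, Psmc4 1416291_at read 1143 on replicate 5 (the others 1183 to 1214), and Psme4 1452211_at read 973 on replicate 7 (the others 1019 to 1054). Replicate 1 read 59.0 for Psmb9 (the others 66.1 to 71.6) and 25.5 for Psmg4 1445700_at (the others 1 to 7.04).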

How the results depend on the processing

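Of 88 tested members, 64 were called, and 60 to 64 when any 1 array was left out (30 to 34 higher, 28 to 31 lower). Pathway calls were then 27 to 32, larger spreads 54 to 65, pairs with a changed ratio 49 to 56 and dropouts 16 to 20. No called member turned, 5 lost the call (Psmc1 1439392_x_at, Psmc6 1417769_at, Psmd10, Psmd12 without amplified replicate 1 or 7, and Psmg2 1425373_a_at) and 9 uncalled ones passed. Of the counts, higher members went from 33 to 19 with the hybridization controls, lower ones from 31 to 18 with the brighter 50%, and larger spreads from 63 to 16 with the hybridization controls and to 37 with deviations from the median. Pairs with a changed ratio went from 52 to 30 without _x_at and _s_at probe sets and to 82 with no filter, as fewer and more pairs entered. Dropouts went from 20 to 7 and 34 with limits at the 10th and 40th percentile, and to 11 in the upper 25%. Apart from the fewer or more pairs, the cause was not tested. Shares of all tested probe sets are not given for these scalings or for deviations from the median.

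The replicate numbers are not known to pair the arrays. Deviations of arrays with the same number correlated at -0.0083 to 0.02, and 4 of 8 amplified arrays correlated best with their own number. These values do not settle whether the numbers pair the arrays. With the number as a replicate block, 62 members were called (33 higher, 29 lower) and 29 pathway probe sets, and 49 pairs had a changed ratio.

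Directions turned for single members as follows; the cause was not tested. After quantile normalization, the difference was of opposite sign for Psmc2 1435859_x_at (-0.27), Psmc6 1417770_s_at (-0.22), Psmc6 1417771_a_at (-0.33), Psmd5 1423234_at (-0.26), Psmd1 1429291_at (-0.39), Psmd12 1448492_a_at (-0.27), Psmd14 1421751_a_at (-0.29), Psmd6 1423697_at (-0.092), Psma2 1448206_at (-0.50), Psma3 1448442_a_at (-0.45), Psma5 1424681_a_at (-0.43), Psma5 1434356_a_at (-0.14), Psma7 1423567_a_at (-0.42), Psmb5 1415676_a_at (-0.23), Psmb1 1448166_a_at (-0.028), Psme1 1417056_at (-0.35), Psme4 1426823_s_at (-0.078), Psme3ip1 1417243_at (-0.047). Of these, Psmd1, Psmd14, Psma2, Psma3 and Psma5 1424681_a_at were called in both directions. With the hybridization controls it turned for Psmc6 1417770_s_at (-0.16), Psmd5 1423234_at (-0.15), Psmd1 1429291_at (-0.035), Psma2 1448206_at (-0.074), Psma3 1448442_a_at (-0.0056), Psma5 1424681_a_at (-0.066), Psma7 1423567_a_at (-0.068), Psme1 1417056_at (-0.37), Psme4 1445147_at (-0.27), Psmb8 1444619_x_at (-0.21), Psmb9 1450696_at (-0.18), Psmc3ip 1442058_s_at (-0.14), Psme3ip1 1417243_at (-0.083). With the brighter 50% it turned for Psmc5 1415740_at (0.094), Psmd11 1437080_s_at (0.58), Psma1 1415695_at (0.018), Psma6 1416506_at (0.56), Psma7 1423568_at (0.62), Psmg2 1425373_a_at (0.019), Psmg2 1448212_at (0.17), Psmb6 1448822_at (0.15), Psme4 1452211_at (0.19), Psmf1 1451337_at (0.059), after centring on the median for Psmd11 1437080_s_at (0.35), Psma6 1416506_at (0.33), Psma7 1423568_at (0.39) and with a pseudocount of 1 for Psme1 1417056_at (-0.028), Psmf1 1424371_at (-0.58). Leaving out 1 array turned uncalled members only, with ranges over the 16 omissions: Psmd11 1437080_s_at (-0.15 to 0.030), Psma7 1423568_at (-0.24 to 0.14), Psme1 1417056_at (-0.24 to 0.52), Psme4 1445147_at (-0.010 to 0.14), Psmf1 1424371_at (-0.17 to 0.63).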
